A study of Homo sapiens with 4 samples.

Results

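Telomerase and shelterin were followed here through 9 genes in the established cell line SK-N-MC, derived from Ewing sarcoma and profiled by ChIP-seq for H3K27ac (acetylated histone H3), FLI1 and SSRP1. The genes were given by name: TERT, TERC, DKC1 and NOP10 of telomerase, and TERF1, TERF2, TINF2, ACD and POT1 of shelterin. They were set beside 20090 protein-coding genes. The set was selected on the absence of peaks at the transcription start site (TSS) of TERT and with the peaks of the other genes known, so all values here are descriptions and were not tested. All libraries came from this 1 line, with no treatment in the labels and chromatin digested by micrococcal nuclease and then sonicated. Each target had 1 library, called against 1 input library, so no replicate check was possible. SSRP1 is a subunit of the histone chaperone FACT, and the FLI1 antibody can also recognise the EWS-FLI1 fusion protein that drives this tumour.

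Telomerase adds TTAGGG repeats to chromosome ends. TERT is its reverse transcriptase and TERC its template RNA, while dyskerin, the product of DKC1, and NOP10 bind and stabilise that RNA. Shelterin coats the repeats and keeps chromosome ends from being handled as DNA breaks. TERF1 and TERF2 bind double-stranded repeats and POT1 the single-stranded overhang, TINF2 joins the subunits, and ACD, also called TPP1, links POT1 to TINF2 and recruits telomerase. TERT is silent in most differentiated cells, whereas the other genes are widely expressed.

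The peak lists give positions and no height, fold or q-value, and their read depth is unknown. A gene without a peak is therefore a gene where none was called, and not a gene shown to lack the protein or the mark. A mark was counted at a gene when any base of a peak fell within 2.5 kb of any annotated TSS of that gene. The label of the line was checked on markers: the Ewing sarcoma genes NR0B1, NKX2-2, STEAP1, CCND1, PRKCB and CCK carried all 3 marks. None lay at ALB, a liver gene, or at CD3D and CD3E of T cells. The epithelial genes EPCAM and KRT8 and the muscle gene MYOD1 had FLI1, with SSRP1 at EPCAM and H3K27ac at KRT8.

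Promoter sequences are shown for the gene without any mark and for the acetylated genes with an ETS core, the letters CCGGAA that ETS proteins such as FLI1 can bind. RefSeq promoters (GRCh38.p14), running from 250 bases before the TSS to 50 after it, were found for 6 of the 9 genes, and not for TERC, TERF1 and TERF2. Each matched hg19 exactly and once. In the TERT line (hg19 chr5:1295134-1295433, minus strand) capitals mark the E-box CACGTG and the GC box GGGCGG, found here as its reverse complement CCGCCC. In the NOP10 line (chr15:34635288-34635587, minus strand), the TINF2 line (chr14:24711780-24712079, minus strand) and the POT1 line (chr7:124569830-124570129, minus strand) capitals mark CCGGAA or its reverse complement TTCCGG. Their E-boxes and GC boxes are left unmarked.
TERT: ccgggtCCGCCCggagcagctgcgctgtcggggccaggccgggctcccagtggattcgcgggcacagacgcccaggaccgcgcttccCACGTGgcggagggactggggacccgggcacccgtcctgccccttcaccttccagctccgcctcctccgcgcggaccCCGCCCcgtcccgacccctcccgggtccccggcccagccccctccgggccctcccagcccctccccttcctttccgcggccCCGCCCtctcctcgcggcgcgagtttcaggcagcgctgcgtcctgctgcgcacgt
NOP10: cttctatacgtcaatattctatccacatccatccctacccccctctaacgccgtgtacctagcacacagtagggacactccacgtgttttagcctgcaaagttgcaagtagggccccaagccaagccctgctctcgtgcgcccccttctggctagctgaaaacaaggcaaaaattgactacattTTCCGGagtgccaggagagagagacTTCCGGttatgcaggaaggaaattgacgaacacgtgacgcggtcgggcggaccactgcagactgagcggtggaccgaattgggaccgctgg
TINF2: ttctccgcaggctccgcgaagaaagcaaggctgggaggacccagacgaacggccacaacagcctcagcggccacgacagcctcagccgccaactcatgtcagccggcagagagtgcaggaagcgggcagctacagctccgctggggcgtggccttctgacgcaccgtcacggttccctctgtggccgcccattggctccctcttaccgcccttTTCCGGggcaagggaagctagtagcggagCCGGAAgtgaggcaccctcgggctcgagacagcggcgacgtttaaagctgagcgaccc
POT1: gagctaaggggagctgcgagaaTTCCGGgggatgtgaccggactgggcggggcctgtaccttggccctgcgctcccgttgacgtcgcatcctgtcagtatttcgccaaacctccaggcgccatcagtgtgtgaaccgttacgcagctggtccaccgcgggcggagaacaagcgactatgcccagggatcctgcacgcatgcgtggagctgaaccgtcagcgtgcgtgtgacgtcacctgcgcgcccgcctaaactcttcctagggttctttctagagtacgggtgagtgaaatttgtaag

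In the reference sequence the TERT promoter held no ETS core, 1 E-box at position -163 from the TSS, and GC boxes at -244, -86 and -5. Its GC content was 77.3%, above that of 94.1% of the 35116 RefSeq promoters. It held the bare word GGAA or TTCC 4 times, against a median of 3 over those promoters, and never as a run. NOP10 had ETS cores at -66 and -41, TINF2 at -37 and -8 of the TSS shown, the second of a pair in RefSeq, and POT1 at -228, whereas ACD and DKC1 had none. E-boxes and GC boxes were not particular to TERT: NOP10 held 2 E-boxes and 1 GC box. DKC1 held 4 GC boxes, and POT1, TINF2 and ACD 2 each. Searched on both strands, the ETS core was present in 17.2% of all promoters, the E-box in 7.26% and the GC box in 44.95%. These matches are descriptions of the letters of the reference genome and not of binding. The promoter sequences of SK-N-MC itself were not examined, so a variant in this line would be missed.

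H3K27ac lay at the TSS of 8 of the 9 genes, SSRP1 at 0 and FLI1 at 1. Over all protein-coding genes the shares were 57.9% for H3K27ac, 35.8% for SSRP1 and 29.0% for FLI1. The gene without H3K27ac was TERT, and the gene with FLI1 was TERF1. The other 7 genes, TERC, DKC1, NOP10, TERF2, TINF2, ACD and POT1, carried H3K27ac alone, a pattern found at 19.2% of protein-coding genes. No mark lay at 34.7% of all genes, as at TERT, and FLI1 with H3K27ac but no SSRP1 lay at 7.04%, as at TERF1. Among genes with H3K27ac at a TSS, 54.7% also had SSRP1 there and 42.1% had FLI1. All 3 marks lay at 17.3% of protein-coding genes and at 0 of these 9. Windows of 1 and 5 kb, canonical TSSs alone and peak midpoints gave the same pattern for each of the 9 genes. Of the nearest peaks, the FLI1 peak of TERF1, at 209 bp, was the farthest one inside the window.

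Over the whole gene from end to end the picture was alike. An H3K27ac peak met 8 of the 9 genes, a FLI1 peak 1 and an SSRP1 peak 0, against 61.4%, 44.4% and 40.4% of protein-coding genes. Several of the 9 lie on chromosomes where the factors were unusually dense or sparse. Leaving out chromosomes 8 and X and chromosome 16 from 40 Mb kept 5 of them, TERT, TERC, NOP10, TINF2 and POT1. H3K27ac then lay at the TSS of 4, FLI1 at 0 and SSRP1 at 0, against 58.4%, 29.8% and 36.8% of the protein-coding genes kept.

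**Figure D1:**
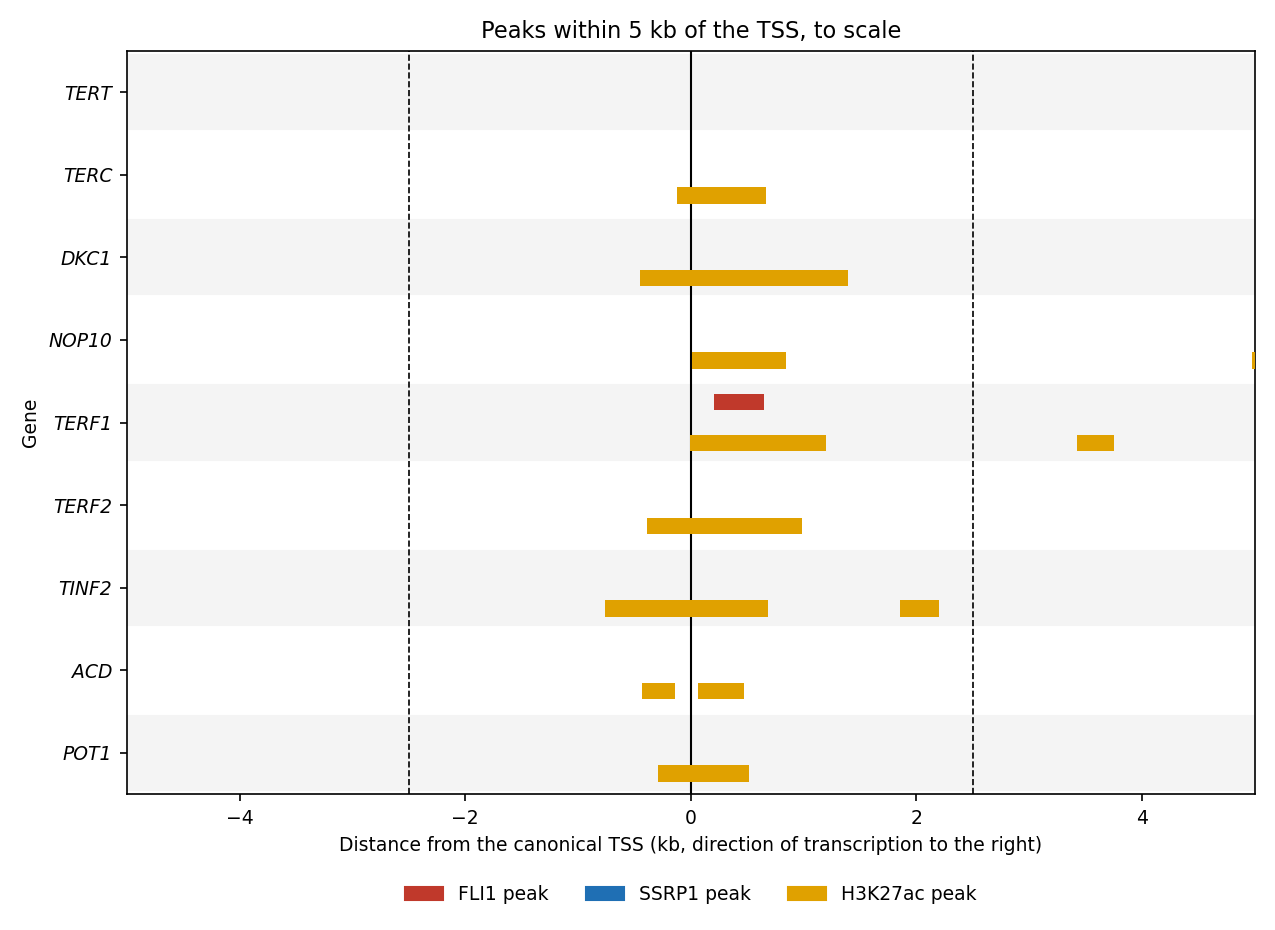
Peaks within 5 kb of the canonical TSS (x axis, kb, transcription to the right) at the 9 genes, drawn to scale, with dashed lines at 2.5 kb. H3K27ac lies at 8 genes, the 1 FLI1 peak is at TERF1, no SSRP1 peak is drawn, and the TERT row is empty.

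TERT lies on chromosome 5 (1253262 to 1295183, minus strand), 1253 kb from the end of the chromosome, and has 16 exons in its canonical transcript. No FLI1, SSRP1 or H3K27ac peak met any part of its 41922 bp. That was so for 27.3% of all protein-coding genes and for 14.3% of those of at least 40 kb. From its TSS, the nearest SSRP1 peak was 20.9 kb away, the nearest FLI1 peak 22.975 kb and the nearest H3K27ac peak 31.6 kb. All 3 lay upstream. A nearer SSRP1 peak was found for 49.8% of protein-coding genes, a nearer FLI1 peak for 57.7% and a nearer H3K27ac peak for 71.9%. All 3 nearest peaks were at least as far away at 3591 genes, or 17.9%.

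The neighbourhood of TERT was not empty of peaks. Within 100 kb there were 2 FLI1, 3 SSRP1 and 8 H3K27ac peaks, against medians of 3, 2 and 3 over protein-coding genes. Upstream, inside CLPTM1L, a gene on the same strand, SSRP1 peaks of 890 bp (1326450 to 1327339) and 428 bp (1329447 to 1329874) lay 31.3 and 34.3 kb from the TERT TSS. Each was shared with an H3K27ac peak, of 1110 and 1095 bp. The TSS of CLPTM1L, 50.0 kb upstream, was covered by 1596 bp of H3K27ac (1344434 to 1346029) without FLI1 or SSRP1. Downstream, inside the amino acid transporter gene SLC6A18, a FLI1 peak of 626 bp (1231367 to 1231992) lay 63.2 kb from the TERT TSS and met H3K27ac peaks of 540 and 645 bp. SLC6A18 and SLC6A19 themselves had no mark at a TSS.

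The FLI1 peak nearest to TERT was 238 bp wide, at hg19 chr5:1318158-1318395 within CLPTM1L, and met neither SSRP1 nor H3K27ac. It is shown as the FLI1 peak closest to the unmarked gene, read on the plus strand, with capitals at each GGAA or TTCC.
FLI1 peak near TERT: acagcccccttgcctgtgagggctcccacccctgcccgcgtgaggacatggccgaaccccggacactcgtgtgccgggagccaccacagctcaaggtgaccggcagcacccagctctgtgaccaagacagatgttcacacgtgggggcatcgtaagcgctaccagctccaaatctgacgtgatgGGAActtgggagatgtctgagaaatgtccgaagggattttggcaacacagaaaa
It held the 4-letter word 1 time, and not as part of an ETS core. Of the 34 FLI1 peaks within 100 kb of the 9 genes, 3 contained an ETS core and 0 a GGAA repeat, the element bound by EWS-FLI1, of 4 or more units. The longest run had 2 repeats. Over all 36305 FLI1 peaks, 10.96% held the core and 2.69% such a repeat. The 3 peaks with a core all lay near TINF2.

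By nearest-peak distances to the 3 lists, the genes most like TERT, leaving out those within 1 Mb of it, were PPP1R14A and TMPRSS9 on chromosome 19, NPC1L1 on chromosome 7, C13orf42 on chromosome 13 and KRTAP12-1 on chromosome 21. Likeness was the Euclidean distance of the log10 distances over the 3 lists, from 0.0609 for PPP1R14A to 0.103 for KRTAP12-1. At PPP1R14A the nearest FLI1, SSRP1 and H3K27ac peaks lay 23.3, 23.3 and 29.0 kb away.

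The other telomerase genes were acetylated at the TSS. TERC, on chromosome 3 (169482308 to 169482848, minus strand), is a gene of 541 bp with 1 exon, and an H3K27ac peak of 795 bp (169482178 to 169482972) covered all of it. The nearest FLI1 peak was 8.01 kb upstream and the nearest SSRP1 peak 8.39 kb upstream. Both met each other and an H3K27ac peak of 1180 bp at the TSS of MYNN, a neighbour transcribed in the other direction. LRRC34 and LRRIQ4, 47.8 kb upstream, also carried all 3 marks. Thus 3 of the 4 protein-coding TSSs within 100 kb of TERC had SSRP1, while TERC and its nearest neighbour ACTRT3 had H3K27ac alone. LRRC34 and LRRIQ4 met the same SSRP1 peaks, and 30.3% of chromosome 3 genes had SSRP1 at a TSS.

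DKC1, on chromosome X (153991017 to 154005964, plus strand), had the widest acetylated promoter of the 8 genes, at 1847 bp (153990685 to 153992531). The peak ran from 454 bp before the canonical TSS to 1392 bp after it. It was the only H3K27ac peak within 100 kb of that TSS. A FLI1 peak of 308 bp and an SSRP1 peak of 302 bp overlapped each other 11.9 kb from a DKC1 TSS, in the TSS window of GAB3, and met no H3K27ac. Few genes of chromosome X carried these factors: 5.07% had FLI1 at a TSS and 10.8% SSRP1, against 45.2% with H3K27ac.

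NOP10, on chromosome 15 (34631360 to 34635381, minus strand), had an H3K27ac peak of 831 bp (34634493 to 34635323) that reached over the gene from its 5′ end. It covered 36 of the 300 bases of the promoter shown above and neither of its ETS cores. The TSS of NUTM1, which is transcribed away from NOP10, lay 179 bp upstream, so the acetylated window belongs to both genes. The nearest FLI1 peak was 12.4 kb away inside NUTM1 and met neither other list.

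**Figure D2:**
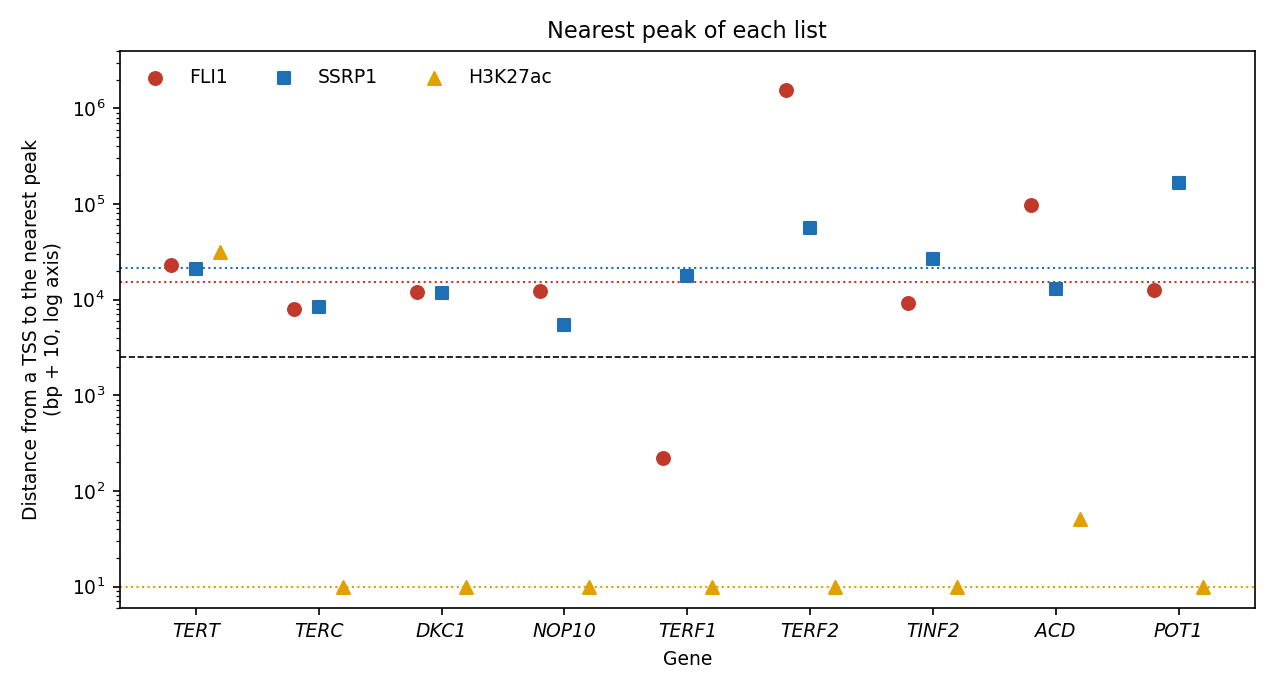
Distance from a TSS to the nearest peak of each list (y axis, bp with 10 added, log scale) for the 9 genes (x axis). Dotted lines give the median over protein-coding genes in the colour of the list and the dashed line the window of 2.5 kb: SSRP1 is beyond the window at every gene and FLI1 is inside it at TERF1.

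TERF1 was the 1 gene of the 9 with FLI1 at its promoter. It lies on chromosome 8 (73921091 to 73960358, plus strand). The FLI1 peak of 438 bp (73921308 to 73921745) began 209 bp after the TSS and lay inside an H3K27ac peak of 1204 bp (73921093 to 73922296). It held no ETS core and the word GGAA or TTCC 6 times. A further H3K27ac peak of 336 bp lay in an intron, 3421 bp after the TSS. The nearest SSRP1 peak was 17.8 kb upstream and met neither other list. There were 8 FLI1 peaks within 100 kb of TERF1, of which the other 7 met no H3K27ac peak. FLI1 was dense on this chromosome as a whole, at 31.4 peaks per Mb where the median chromosome had 11.8, and 51.6% of its genes had FLI1 at a TSS. The part of that density in the TERF1 peak was not tested.

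TERF2 and ACD lie on the long arm of chromosome 16, where FLI1 and SSRP1 peaks were sparse. From 40 Mb onward the density per Mb was 2.48 for FLI1, 2.36 for SSRP1 and 10.5 for H3K27ac, where the median chromosome had 11.8, 6.81 and 12.3. The part of this low density in the values of TERF2 and ACD was not tested. At TERF2 (69389470 to 69442474, minus strand) an H3K27ac peak of 1373 bp (69418928 to 69420300) covered the canonical TSS at 69419910. The gene as annotated also runs upstream of that site. The nearest SSRP1 peak was 55.5 kb away, at the TSS of PDF. The nearest FLI1 peak was 1539 kb away, at the TSSs of CENPT and NUTF2, and 99.1% of protein-coding genes had a nearer one.

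At ACD (67691415 to 67694713, minus strand) acetylation fell into 2 narrow peaks on either side of the canonical TSS. The peak of 414 bp began 62 bp downstream and the peak of 300 bp ended 137 bp upstream, and both lay within 2.5 kb of the TSS of PARD6A, 700 bp upstream. The nearest SSRP1 peak, 13.0 kb from an ACD TSS, was 575 bp wide and shared with H3K27ac outside any TSS window. The 1 FLI1 peak within 100 kb, 394 bp wide, stood at the promoter of CTCF, 97.8 kb downstream, together with 905 bp of SSRP1 and 2401 bp of H3K27ac.

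TINF2, on chromosome 14 (24707492 to 24711869, minus strand), stood in the most densely marked surroundings of the 9 genes. Within 100 kb it had 12 FLI1, 6 SSRP1 and 12 H3K27ac peaks. Of the 24 other protein-coding genes there, 10 had SSRP1 at a TSS, near the 40.7% of all chromosome 14 genes. Several of the 10 met the same SSRP1 peak. Its own TSS was covered by 1442 bp of H3K27ac (24711147 to 24712588), and a second acetylated peak of 346 bp, which met an exon, began 1858 bp after the canonical TSS. Both ETS cores of the promoter shown above were inside the wider peak, with no FLI1 peak called there. The nearest FLI1 peak, 9.18 kb away and 706 bp wide, held 2 ETS cores and lay within 2631 bp of H3K27ac at GMPR2 and NEDD8. The nearest SSRP1 peak was 26.3 kb away, within the TSS windows of MDP1 and CHMP4A. RABGGTA, 29.0 kb upstream, had all 3 marks, with SSRP1 over 1018 bp.

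POT1, on chromosome 7 (124462440 to 124570037, minus strand), spans 107598 bp and, like DKC1, had 3 peaks of all lists together within 100 kb. An H3K27ac peak of 813 bp (124569359 to 124570171) covered its TSS and the whole of the promoter shown above, with its ETS core. There was no SSRP1 peak within 100 kb, and the nearest, at GPR37, was 164 kb away.

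**Figure D3:**
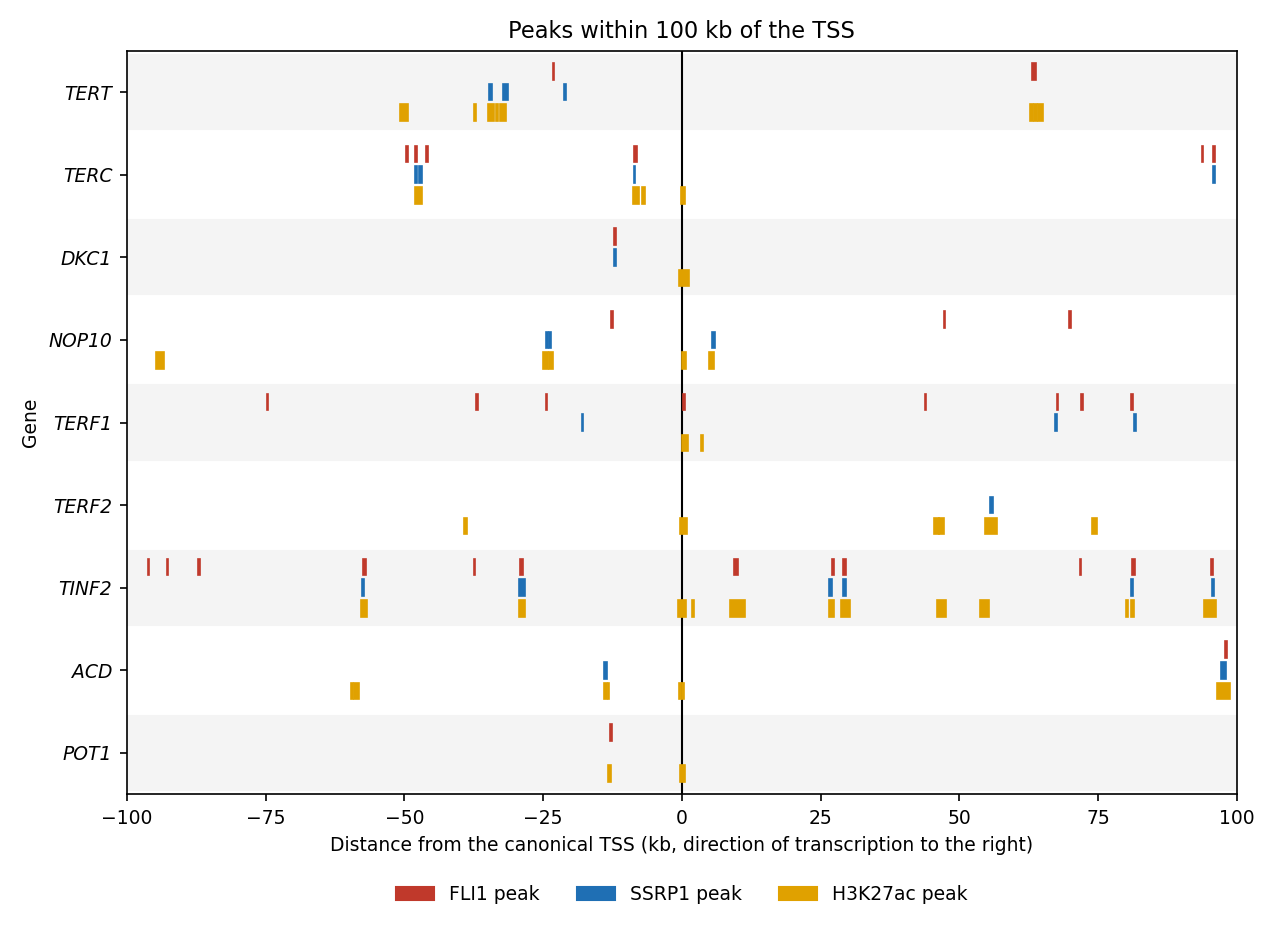
Peaks within 100 kb of the canonical TSS (x axis, kb, transcription to the right) at the 9 genes, with narrow peaks drawn with a thin outline so that they can be seen. TINF2 has 12 FLI1 and 12 H3K27ac peaks, whereas POT1 has 1 FLI1 peak, 2 H3K27ac peaks and no SSRP1 peak.

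Across the 9 neighbourhoods, FLI1 peaks within 100 kb ranged from 0 at TERF2 to 12 at TINF2, SSRP1 peaks from 0 at POT1 to 6 at TINF2, and H3K27ac peaks from 1 at DKC1 to 12 at TINF2. More peaks than the median gene were found for SSRP1 at 5 of the 9 genes, for H3K27ac at 6 and for FLI1 at 3. The shares over protein-coding genes were 41.0%, 50.0% and 47.5%. With a neighbourhood of 250 kb the SSRP1 count was 3 of 9, the H3K27ac count 4 and the FLI1 count 4. Of the 23 SSRP1 peaks within 100 kb, 15 lay at the TSS of a protein-coding gene, 17 met H3K27ac and 10 met FLI1.

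The acetylated promoters of the 8 genes had a median width of 1017.5 bp, taking the widest H3K27ac peak at each, against 1379 bp over 11624 acetylated protein-coding genes. Over acetylated genes in general, the shares with SSRP1 and FLI1 were higher in each group of wider peaks that held one of the 8. In the decile of width that holds ACD, the narrowest of the 8 at 414 bp, 31.4% of genes had SSRP1 and 26.3% FLI1. In the decile of TERC, at 795 bp, the shares were 33.5% and 26.7%, and in that of NOP10 and POT1 they were 42.1% and 32.6%. For TERF1 and TERF2, at 1204 and 1373 bp, they were 49.96% and 40.6%, and for TINF2 55.8% and 43.2%. In the decile of DKC1 60.6% of genes had SSRP1 and 45.2% FLI1. Width, chromosome and the number of TSSs were not held alike together.

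**Figure D4:**
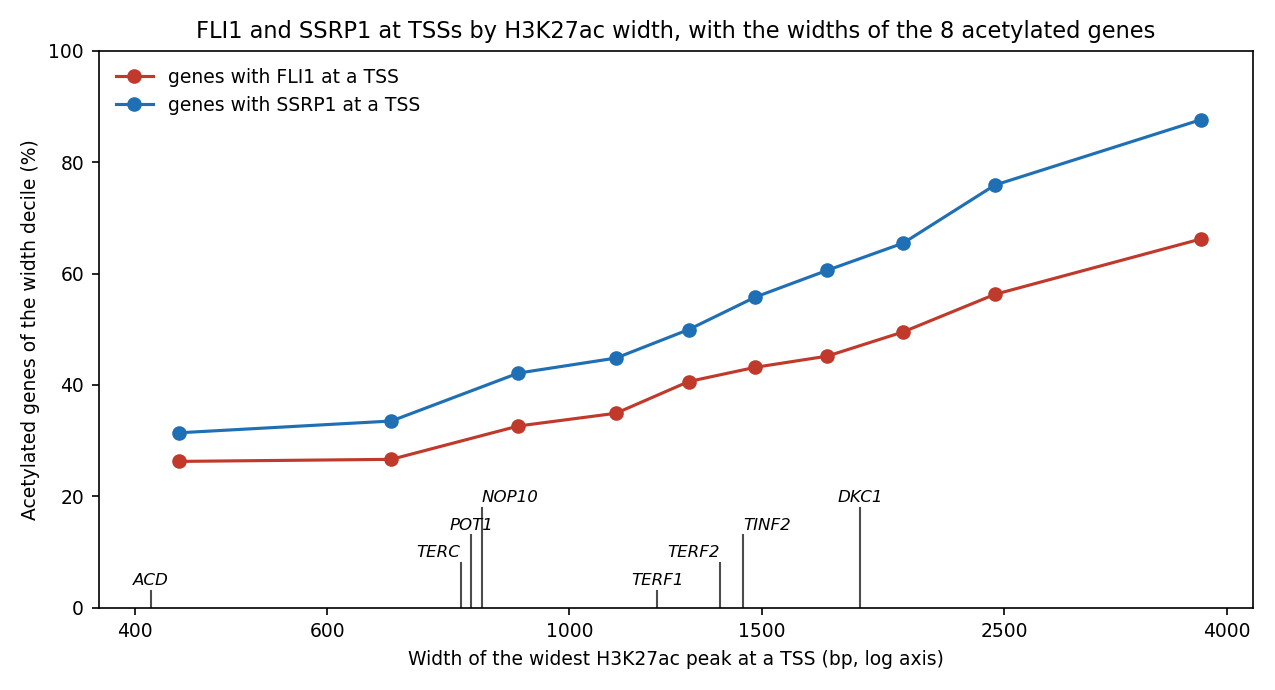
Share of acetylated protein-coding genes with FLI1 or SSRP1 at a TSS (y axis, %) in 10 groups of equal size by the width of the widest H3K27ac peak there (x axis, bp, log scale, points at group medians). Vertical marks give the widths of the 8 acetylated telomerase and shelterin genes, from 414 bp at ACD to 1847 bp at DKC1, none of which had SSRP1.

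Partners of these genes in telomere maintenance were examined as a list of 30, none of them among the 9. Of these, 29 had H3K27ac at a TSS (96.7%, 95% Clopper-Pearson interval 82.8 to 99.9), 15 had FLI1 (50.0%, 31.3 to 68.7) and 10 had SSRP1 (33.3%, 17.3 to 52.8). These intervals cover counting error only, as if the genes were independent random draws, which those of a chosen list are not. The list was chosen from general knowledge with earlier results known, so the intervals are no test against other shares. Over all protein-coding genes the shares were 57.9% for H3K27ac, 29.0% for FLI1 and 35.8% for SSRP1. Among protein-coding genes with H3K27ac at a TSS, 42.1% had FLI1 there and 54.7% had SSRP1. All 3 marks lay at 7 genes: PARN, RUVBL1 and RUVBL2 of telomerase assembly, and BLM, NBN, RAD50 and SMARCAL1, which act in DNA repair and at stalled forks. SHQ1, which helps to assemble dyskerin, was the 1 gene with no mark, and its nearest H3K27ac peak was 39.5 kb away. H3K27ac alone lay at 11 genes, FLI1 with H3K27ac at 8 and SSRP1 with H3K27ac at 3. Leaving out chromosomes 8 and X and chromosome 16 from 40 Mb kept 23 of the 30. H3K27ac then lay at 22, FLI1 at 12 and SSRP1 at 9. The shares of the protein-coding genes kept were 58.4%, 29.8% and 36.8%. The difference between these 30 genes and the 9 was not tested.

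Among 12 genes of telomerase assembly, NHP2 and GAR1, which join dyskerin and NOP10 on TERC, had FLI1 and H3K27ac without SSRP1. WRAP53, which brings telomerase to Cajal bodies, NAF1, PINX1 and TENT4B had H3K27ac alone, and TEP1 and ZCCHC8 had SSRP1 with H3K27ac. TERF2IP, the shelterin subunit that binds TERF2, had H3K27ac alone, with FLI1 342 kb away. Like TERF2, it lies in the part of chromosome 16 where FLI1 and SSRP1 peaks were sparse. It shared that pattern with CTC1 and STN1 of the CST complex, which fills in the telomeric C strand, while the third CST gene, TEN1, also had FLI1. SSRP1 thus lay at 0 of these 4 genes, FLI1 at 1 and H3K27ac at 4. The 14 genes of telomere processing and binding all had H3K27ac, with FLI1 at 9 and SSRP1 at 5. Of those with FLI1, TNKS, NBN and HMBOX1 lie on chromosome 8, where 51.6% of genes had FLI1 at a TSS. Beside these counts, 57.9% of all protein-coding genes had H3K27ac at a TSS, 29.0% FLI1 and 35.8% SSRP1. ATRX, whose loss marks telomerase-independent lengthening of telomeres, had H3K27ac alone, and its partner DAXX had SSRP1 as well. ATRX lies on chromosome X, where 5.07% of genes had FLI1 at a TSS and 10.8% SSRP1. The part of regional density in the values of these genes was not tested.

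**Figure D5:**
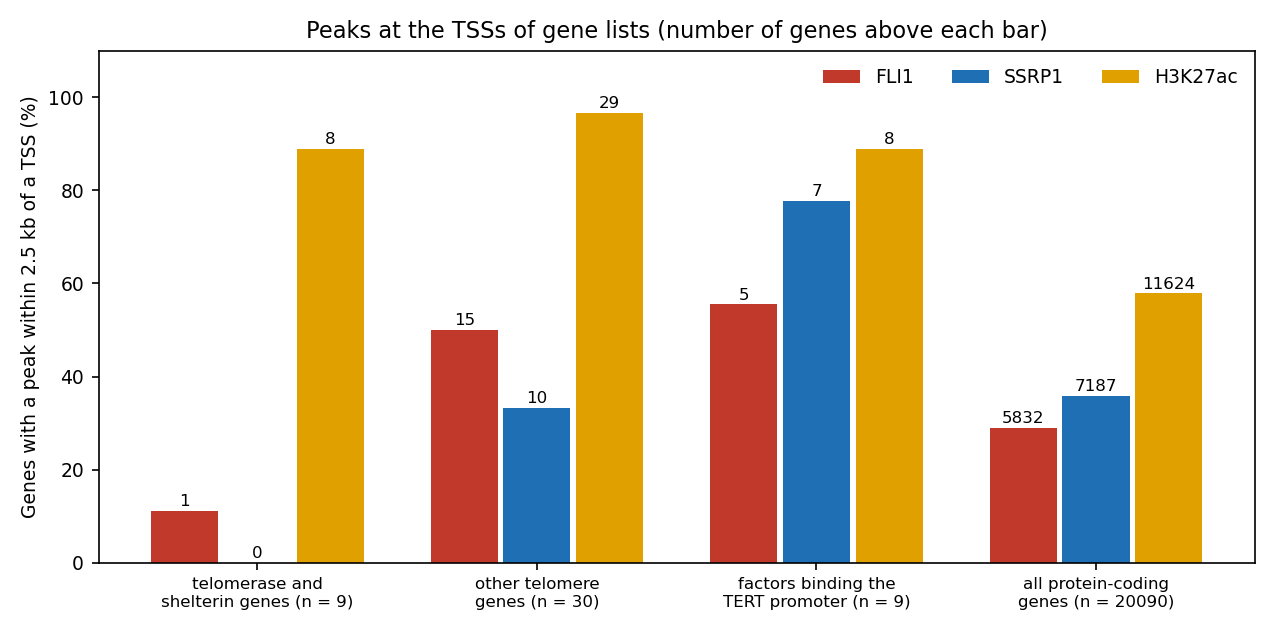
Share of genes with a FLI1, SSRP1 or H3K27ac peak within 2.5 kb of a TSS (y axis, %) in 4 groups of genes (x axis), with the number of genes above each bar. H3K27ac lies at 8 of the 9 telomerase and shelterin genes and at 29 of the 30 other telomere genes, while SSRP1 lies at 0 and 10.

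Genes of factors known to bind the TERT promoter were also examined, since TERT itself was unmarked. Acetylation marked 8 of these 9 genes, with SSRP1 at 7 and FLI1 at 5, where the shares over all protein-coding genes were 57.9%, 35.8% and 29.0%. GABPA and GABPB1, the subunits of an ETS factor that can activate TERT, carried all 3 marks, as did SP3, E2F1 and CTCF. SP1 and ETS2 had SSRP1 with H3K27ac, MAX had H3K27ac alone, and WT1, a repressor of TERT in some cells, had none. FLI1 peaks of 514 bp at GABPA and 503 bp at GABPB1 covered a TSS. The deposited lists hold no expression values, so whether any of these genes was transcribed was not measured.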

How the data were processed

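The authors mapped the reads to hg19 using Bowtie2, per the series' design text. Against the input, they then ran MACS2 (2.2.7.1) with a q cutoff of 0.05 to find peaks, per the same text. For duplicates and multiply mapped reads the handling was not given in the sources used here. The deposited lists give the chromosome, start, end and name of each peak, for 1 library per target, and groups came from the sample titles. Lines repeating 1 interval were counted once, which left 36305 FLI1, 19855 SSRP1 and 37195 H3K27ac peaks on chromosomes 1 to 22 and X.

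Gene models and the TSSs of basic transcripts were those of GENCODE 44 lifted to GRCh37, with entries of the same symbol joined. Distances to nearest peaks run from the closest TSS, positions before or after a TSS and counts within 100 kb from the canonical one, and coordinates are 1-based in hg19. Peaks were shared when at least 20% of either was covered. Promoter sequences came from RefSeq (GRCh38.p14) and were placed on hg19 by exact match. Functions were checked on simulated intervals with bedtools 2.31.1. Python 3.11.15, numpy 2.4.6, pandas 2.3.3 and scipy 1.17.1 were used.

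Named were all 9 genes, genes of the fixed lists with all 3 marks or none and others where a result turned on them, genes at named peaks, and the 5 genes most like TERT. The members and lists were chosen with earlier results of these data known, from general knowledge of the field, and no test was made. Some peaks near NOP10 and POT1 are not reported here. Alternatives were TSS windows of 1 and 5 kb, canonical TSSs, peak midpoints, neighbourhoods of 50 and 250 kb and medians of the same chromosome.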

Additional observations from a re-analysis of the deposited data

How the results depend on the processing

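Of 49 alternative values computed, 46 stayed within a factor of 1.5 of the reported count, or, for the distances of TERT, within the width of its nearest peak. Some of these could not have done otherwise, so the tally is no measure of stability. A peak midpoint always lies within the width of its peak. A count of 0 cannot rise with a narrower window, fewer TSSs, midpoints alone or fewer genes. The count of genes with more SSRP1 peaks than the median gene was 3 of 9 with a neighbourhood of 250 kb, against 5. For H3K27ac it was 4 of 9, against 6, which is just at the factor of 1.5. Leaving out chromosomes 8 and X and chromosome 16 from 40 Mb (chosen after seeing the data) kept 5 of the 9 genes: H3K27ac then lay at 4, FLI1 at 0 and SSRP1 at 0, against 58.4%, 29.8% and 36.8% of the protein-coding genes kept. The genes left out, DKC1, TERF1, TERF2 and ACD, all had H3K27ac at a TSS, and TERF1 on chromosome 8 was the 1 gene with FLI1. No paired analysis was possible because each target has 1 library, and a stricter peak threshold could not be tried because the lists give no peak strength. Peaks too weak to be called at this unknown depth would be missed at any of these genes.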

Other observations

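The telomeric repeat itself, the sequence that shelterin binds, was searched under the peaks after the results above were seen. At least 3 consecutive TTAGGG, on either strand, occurred in 10 of 19855 SSRP1 peaks, in 2 of 37195 H3K27ac peaks and in 0 of 36305 FLI1 peaks. Per Mb covered by peaks that is 0.976 peaks with the repeat for SSRP1 and 0.0516 for H3K27ac. Chromosomes 1 to 22 and X held 0.102 such arrays per Mb. That figure counts each array and the others count peaks, so the measures are not the same. Of the 10 SSRP1 peaks, 9 lay within 100 kb of a chromosome end, and none of the 10 met FLI1 or H3K27ac. Over the chromosomes, 119 of the 290 arrays of this length lay as close to an end. Peaks of every list were present in those end regions, with 89 SSRP1, 102 FLI1 and 112 H3K27ac peaks within 100 kb of an end.

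The widest of these SSRP1 peaks covered 1724 bp at the start of chromosome 5 (10061 to 11784) and held 183 repeats in a row, on the same chromosome arm as TERT. Others stood at the ends of chromosome 12 (133841526 to 133841943, 61 repeats), chromosome X (155259981 to 155260413, 43 repeats) and chromosome 1 (10037 to 10408, 11 repeats). Both H3K27ac peaks with the repeat held 3 copies and lay more than 1 Mb from an end, and 1 of them, on chromosome 6, met FLI1. Reads of telomeric repeats can match many chromosome ends equally well, so an end named here is where reads were placed and may not be where they arose. How reads were placed, and the level of the input library at these sites, was not tested.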
